A study of Mus musculus with 4 samples.

Results

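The YAP-TEAD pathway and its target genes were followed in cultured mouse vascular smooth muscle cells through 10 genes picked by symbol: Yap1, Wwtr1, Tead1, Lats1, Lats2, Ctgf, Cyr61, Ankrd1, Amotl2 and Axl. All 10 were found among the 22488 genes listed, and all 10 passed the filter for testing. These cells form the contractile layer of arteries. They derive from C57BL/6 mice, were used at passages 4 to 10 and carried an siRNA for 48 hours. In the circEsyt2 siRNA group (2 libraries) the siRNA was directed at circEsyt2, a circle of RNA that takes its name from the gene Esyt2, and in the scramble siRNA group (2 libraries) it had no intended target. Separate cultures are not stated for the 2 libraries of a group, so the p-values reflect the spread among these libraries alone, which may be technical. The question was how transcripts of the pathway stood with circEsyt2 siRNA relative to scramble siRNA.

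YAP, encoded by Yap1, and TAZ, encoded by Wwtr1, are transcriptional coactivators that carry signals from cell shape, stiffness of the surroundings and cell density into the nucleus. They bind DNA through TEAD factors, whereas the LATS kinases of the Hippo pathway phosphorylate them, which holds them in the cytoplasm and favours their degradation. Among the best known targets are the secreted matricellular proteins CTGF and CYR61, and some targets, such as LATS2 and AMOTL2, restrain YAP in turn. In smooth muscle, YAP is known for its part in the change from the contractile to the proliferative state.

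Expression is given as FPKM, in which a gene's fragment number is divided by its length and by the library's total, so levels can be set side by side between genes. The libraries held 3765056 and 3127224 fragments in the circEsyt2 siRNA group and 2516428 and 4116791 in the scramble siRNA group, and the pathway genes other than Ankrd1 rested on 333 to 8408 fragments each per library. The host gene Esyt2 had 40.6 and 48.7 FPKM with circEsyt2 siRNA, against 53.4 and 50.6 FPKM with scramble siRNA (adjusted p = 0.318 in limma). That row counts all exons of the gene and does not measure the circle. Of 7 smooth muscle markers 6 were tested and 5 were lower with circEsyt2 siRNA, and their summed FPKM was 918 and 872 with circEsyt2 siRNA, against 1524 and 1543 with scramble siRNA. Most of this sum is Acta2, smooth muscle actin, at 883 and 829 FPKM with circEsyt2 siRNA and 1421 and 1446 FPKM with scramble siRNA. Cnn1 had 19.8 and 21.9 FPKM with circEsyt2 siRNA, against 62.6 and 58.4 FPKM with scramble siRNA. Myh11, Smtn, Lmod1, Des and Tagln were low in all 4 libraries (0.423 to 13.0 FPKM). Among fibroblast markers Dcn stood at 184 to 205 FPKM and Col1a1 at 213 to 357 FPKM, and the others at 20.5 FPKM or less. The summed FPKM of 6 hepatocyte markers was 2815 in circEsyt2 siRNA replicate 1 and 85.8 in replicate 2, against 11.1 and 2.94 in the scramble libraries. Replicate 1 therefore stands apart, and replicate 2 also lay above both scramble libraries, so values are given for each library. Limma called 0 of the 6 hepatocyte, 0 of 4 tested macrophage and 0 of 3 tested epithelial markers, 1 of 2 endothelial markers as higher and 1 of 5 fibroblast markers as lower. In such bulk samples fewer cells of a type and less RNA per cell cannot be told apart, and the part of the marker differences in the results was not tested.

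Of the 10 genes, Ctgf, Lats2 and Ankrd1 rose with circEsyt2 siRNA and the other 7 were not called. A call means an adjusted p under 0.05 in limma, with Benjamini-Hochberg adjustment over 11290 genes, on log2(FPKM + 1). At that threshold 5.47% of all tested genes were higher, 7.26% were lower and 12.7% were called in either direction. In limma 0 of the 10 were lower, and 3 had an unadjusted p under 0.05, all higher, beside 3397 of the 11290 genes tested. Voom on recovered fragments also called 3 higher and 0 lower, beside 900 higher and 1166 lower of the 11290. The groups did not overlap in 6 of the 10 genes, 5 higher and 1 lower with circEsyt2 siRNA, beside 60.7% of all tested genes, 29.7% higher and 31.1% lower. The median log2 fold change of the 10 was 0.12, beside 0.00 over all genes tested (circEsyt2 siRNA minus scramble siRNA throughout).

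**Figure D1:**
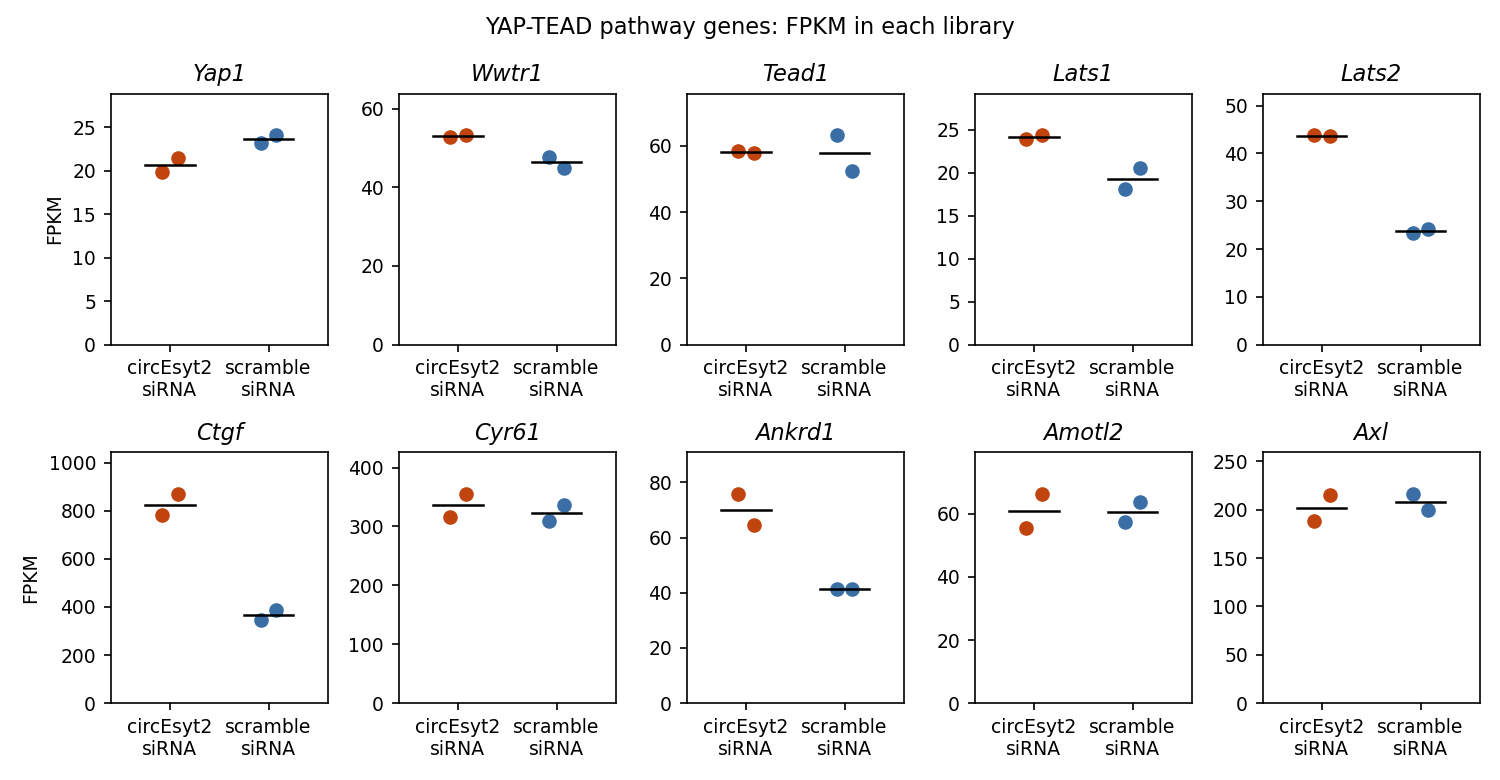
FPKM of the 10 YAP-TEAD pathway genes in each library, with 1 panel per gene, a linear axis from 0 and a bar at the group mean (n = 2 libraries per group). In Ctgf, Lats2 and Ankrd1 both circEsyt2 siRNA libraries lie well above both scramble siRNA libraries, and in Cyr61, Amotl2, Axl and Tead1 the groups overlap.

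Yap1 (chr9:7931999-8004596, minus strand; positions on GRCm38 from GENCODE M21) encodes YAP itself and was the lowest of the 10 genes in the circEsyt2 siRNA libraries. It had 19.8 and 21.5 FPKM with circEsyt2 siRNA, against 23.1 and 24.1 FPKM with scramble siRNA. The groups did not overlap, but the log2 fold change of −0.19 (SE 0.13, 95% interval −0.50 to 0.13) did not pass the test (limma adjusted p = 0.370). Wwtr1 (chr3:57455649-57575910, minus strand), which encodes the paralogue TAZ, had 52.7 and 53.2 FPKM with circEsyt2 siRNA, against 47.7 and 45.0 FPKM with scramble siRNA. Again the groups did not overlap, here with the circEsyt2 siRNA libraries above, and the log2 fold change was 0.19 (SE 0.11, 95% interval −0.08 to 0.46; limma adjusted p = 0.301).

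Tead1 (chr7:112679318-112906807, plus strand) encodes a DNA-binding partner through which YAP and TAZ reach their targets. Its values were 58.4 and 57.9 FPKM with circEsyt2 siRNA, against 63.1 and 52.3 FPKM with scramble siRNA. The circEsyt2 siRNA libraries lay between the scramble libraries, and the log2 fold change was 0.02 (SE 0.13, 95% interval −0.30 to 0.34; limma adjusted p = 0.944). The sign of so small a difference was not stable, since it was −0.12 without scramble siRNA replicate 2.

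Of the LATS kinases, which phosphorylate YAP and TAZ, Lats2 rose and Lats1 was not called. Lats2 (chr14:57689662-57758388, minus strand) had 43.8 and 43.7 FPKM with circEsyt2 siRNA, against 23.3 and 24.3 FPKM with scramble siRNA. Both circEsyt2 siRNA libraries were high and nearly equal, and mean FPKM was 1.84-fold that of the scramble libraries (log2 fold change 0.85, SE 0.11; limma adjusted p = 0.0108). Lats1 (chr10:7681214-7716460, plus strand) had 23.9 and 24.3 FPKM with circEsyt2 siRNA, against 18.1 and 20.5 FPKM with scramble siRNA. Its groups did not overlap either, but its log2 fold change of 0.31 (SE 0.13, 95% interval −0.01 to 0.63) was not called (limma adjusted p = 0.180). Lats2 shares 2955 exonic bases with the same-strand gene model Gm49361, which is listed at 0 in all 4 libraries. Whether fragments in the shared bases were counted for Lats2 is not stated, so its level may be too low where set beside other genes.

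Ctgf, also named Ccn2 (chr10:24595442-24598683, plus strand), encodes connective tissue growth factor, a secreted protein that binds matrix and growth factors and is a classical YAP-TEAD target. It had 781 and 870 FPKM with circEsyt2 siRNA, against 345 and 387 FPKM with scramble siRNA. Both circEsyt2 siRNA libraries were more than 2-fold above the scramble mean, and the mean ratio was 2.26 (log2 fold change 1.17, SE 0.11; limma adjusted p = 0.00467). These values rest on 8408 and 7782 fragments with circEsyt2 siRNA and 2481 and 4563 fragments with scramble siRNA. Ctgf already ranked high in the scramble cells, where 0.664% of the tested genes had a higher mean FPKM, and with circEsyt2 siRNA 0.257% did. Its exons overlap 665 bases of an opposite-strand gene model, Gm15270. The library kit tags double-stranded cDNA, so fragments of such partners cannot be told apart.

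Cyr61, also named Ccn1 (chr3:145646976-145649981, minus strand), encodes the other matricellular target most used as a readout of YAP, and belongs to the same protein family as Ctgf. It had 316 and 355 FPKM with circEsyt2 siRNA, against 309 and 336 FPKM with scramble siRNA. The libraries of the groups interleaved, with a log2 fold change of 0.06 (SE 0.11; limma adjusted p = 0.750). The 95% interval of −0.21 to 0.32 holds no change as large as the estimate for Ctgf.

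Ankrd1 (chr19:36111961-36120099, minus strand) encodes a muscle ankyrin repeat protein found in nucleus and sarcomere that is induced by YAP and by stretch. It had 75.8 and 64.5 FPKM with circEsyt2 siRNA, against 41.2 and 41.4 FPKM with scramble siRNA. The scramble libraries were nearly equal and both lay below, giving a mean ratio of 1.70 (log2 fold change 0.75, SE 0.12; limma adjusted p = 0.0192). Its values rest on at least 504 and 356 fragments with circEsyt2 siRNA and at least 183 and 301 with scramble siRNA, which are minima because its length in the counting could not be settled.

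Amotl2 (chr9:102716672-102733418, plus strand), a target gene whose angiomotin-family product binds YAP and restrains it, had 55.5 and 66.4 FPKM with circEsyt2 siRNA, against 57.3 and 63.8 FPKM with scramble siRNA. The scramble values lay inside the range of the circEsyt2 siRNA values, with a log2 fold change of 0.01 (SE 0.13, 95% interval −0.33 to 0.34; limma adjusted p = 0.984). Axl (chr7:25757273-25788705, minus strand), a target gene that encodes a receptor tyrosine kinase of the TAM family, had 188 and 215 FPKM with circEsyt2 siRNA, against 216 and 200 FPKM with scramble siRNA. Its groups overlapped as well, with a log2 fold change of −0.05 (SE 0.11, 95% interval −0.32 to 0.23; limma adjusted p = 0.804).

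**Figure D2:**
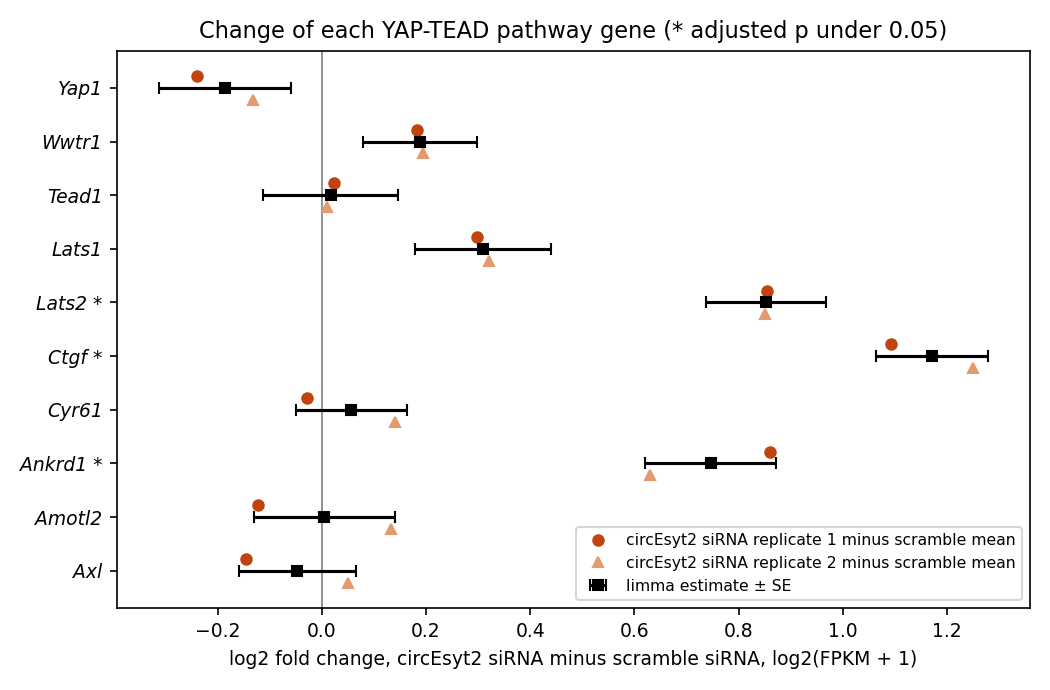
Log2 fold change of each gene, circEsyt2 siRNA minus scramble siRNA on log2(FPKM + 1), as the limma estimate with its SE (square and bar) and for circEsyt2 siRNA replicate 1 (circle) and replicate 2 (triangle) against the scramble mean. Ctgf, Lats2 and Ankrd1 lie at 0.63 or more in both replicates, while Cyr61, Amotl2 and Axl have 1 replicate on each side of 0.

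In both circEsyt2 siRNA replicates the 3 risen genes lay above the scramble mean, as did Lats1, Wwtr1 and Tead1. The 3 were called on these same libraries, so this is no separate support. Relative to the scramble mean, Ctgf was higher by 1.09 in replicate 1 and 1.25 in replicate 2 on the log2 scale. Lats2 was higher by 0.85 in both replicates, and Ankrd1 by 0.86 in replicate 1 and 0.63 in replicate 2. Without circEsyt2 siRNA replicate 1 limma called all 3, or 0 of the 10 where the filter was kept over all 4 libraries, and without replicate 2 the call of Lats2 was lost (adjusted p = 0.0565). Without scramble siRNA replicate 1 or without scramble siRNA replicate 2, limma called 0 of the 10 genes and 0 of all tested genes. In both of those fits 3 of the 10 had an unadjusted p under 0.05, beside 1959 and 2231 of all genes, and the log2 fold changes were 1.09 and 1.26 for Ctgf, 0.82 and 0.88 for Lats2 and 0.74 and 0.75 for Ankrd1. With eBayes without a trend Ctgf kept its call, and Lats2 (adjusted p = 0.0510) and Ankrd1 (adjusted p = 0.0739) did not. Over the alternatives the limma adjusted p ran from 0.000114 to 0.170 for Ctgf, 0.00095 to 0.190 for Lats2 and 0.00693 to 0.214 for Ankrd1.

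Ctgf, Cyr61 and Axl were the 3 most abundant of the 10 transcripts in both groups. With circEsyt2 siRNA the order of mean FPKM was Ctgf (825), Cyr61 (336), Axl (202), Ankrd1 (70.2), Amotl2 (60.9), Tead1 (58.2), Wwtr1 (52.9), Lats2 (43.7), Lats1 (24.1) and Yap1 (20.6). With scramble siRNA the order was Ctgf (366), Cyr61 (322), Axl (208), Amotl2 (60.6), Tead1 (57.7), Wwtr1 (46.4), Ankrd1 (41.3), Lats2 (23.8), Yap1 (23.6) and Lats1 (19.3). Neighbours whose libraries overlapped were Ankrd1 with Amotl2 and Amotl2 with Tead1 in the circEsyt2 siRNA group, and Amotl2 with Tead1 and Lats2 with Yap1 in the scramble siRNA group.

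Ratios within a library, which do not depend on library scaling, were set out for 4 pairs of related genes chosen after their values were seen. The FPKM of Ctgf over that of Cyr61 was 2.47 and 2.45 with circEsyt2 siRNA, against 1.12 and 1.15 with scramble siRNA. Lats2 over Lats1 was 1.83 and 1.80 with circEsyt2 siRNA, against 1.29 and 1.18 with scramble siRNA. Wwtr1 over Yap1 was 2.66 and 2.48 with circEsyt2 siRNA, against 2.06 and 1.87 with scramble siRNA. In these pairs and in Tead4 over Tead1 (0.105 and 0.118, against 0.028 and 0.0516) the circEsyt2 siRNA libraries were above both scramble libraries. Tead4 rested on only 16 and 40 fragments in the scramble libraries. The exact two-sided permutation test on 2 against 2 libraries gave p = 0.333 for each pair, also after adjustment over the 4 pairs, and this is the smallest p the design allows.

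**Figure D3:**
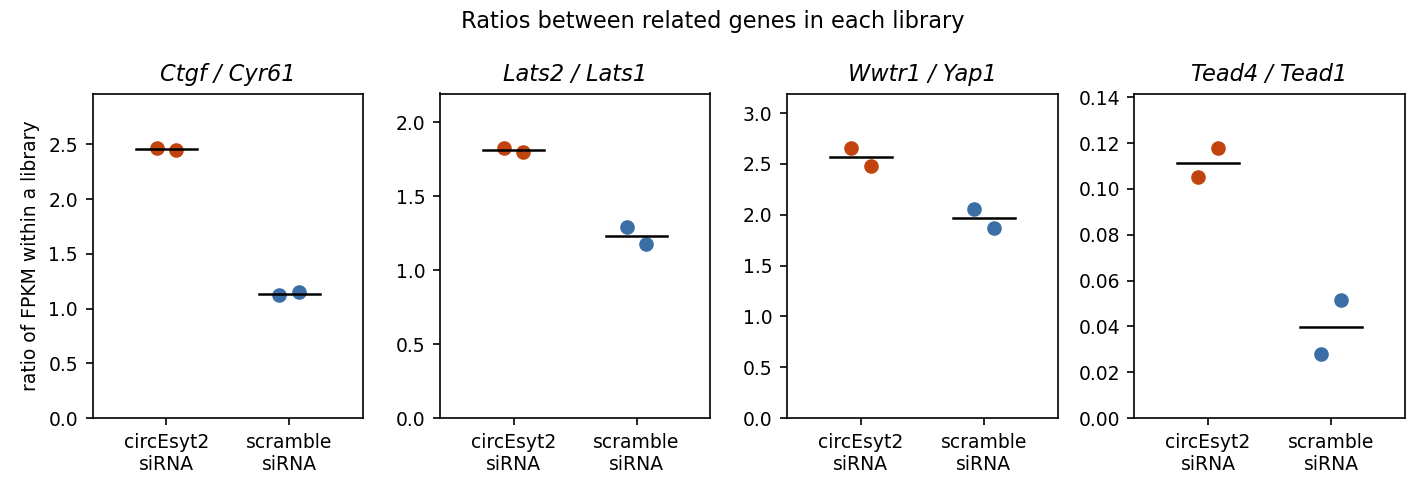
Ratio of FPKM between related genes within each library, on linear axes from 0, with the circEsyt2 siRNA libraries at the left, the scramble siRNA libraries at the right and a bar at the group mean (n = 2). The Ctgf to Cyr61 ratio is 2.47 and 2.45 in the circEsyt2 siRNA libraries and 1.12 and 1.15 in the scramble siRNA libraries.

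TEAD factors recognise the core GGAATG, read as CATTCC on the other strand, and the promoters of the genes were searched for these letters on both strands. The windows, from RefSeq on GRCm38.p6, run from 250 bases before to 50 bases after a transcript's start, and 8 of the 10 genes matched. Ctgf and Tead1 had no entry. The sites below are shown to compare genes that rose (Ankrd1 and Lats2) with genes that were not called, each as 30 bases in the direction of transcription with the motif in capitals.
Ankrd1 site 1: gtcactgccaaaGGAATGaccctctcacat
Ankrd1 site 2: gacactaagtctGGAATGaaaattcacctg
Lats2: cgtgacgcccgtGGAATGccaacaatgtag
Cyr61: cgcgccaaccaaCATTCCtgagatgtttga
Amotl2: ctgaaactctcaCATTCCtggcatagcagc
Axl: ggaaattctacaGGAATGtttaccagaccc
Yap1: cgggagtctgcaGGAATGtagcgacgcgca
Wwtr1: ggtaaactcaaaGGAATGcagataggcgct

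The motif was present in 7 of these 8 genes, Lats1 being the one without it, and in 14.7% of all 32851 promoter windows. Counted by gene, 16.6% of all genes in the table hold it in at least 1 window. Both searched genes that rose and 5 that were not called carry it. Ctgf, which also rose, could not be searched, and only Lats1 lacked the motif. So few genes cannot show whether the motif goes with a rise. A match describes letters and does not make a binding site. The Ankrd1 sites lie at chr19:36120037-36120066 and chr19:36119950-36119979 on the minus strand, 210 and 123 bases before the transcript start in RefSeq and within an Ankrd1 exon of GENCODE M21. The Lats2 site, at chr14:57746102-57746131 on the minus strand, begins 4 bases after a RefSeq start, in a Lats2 exon. That start lies inside the Lats2 gene of M21 (chr14:57689662-57758388), not at its outer end. Lats2 had 2 windows and 1 site. The Cyr61 site at chr3:145650071-145650100 (minus strand, 103 bases before the start) and the Axl site at chr7:25788949-25788978 (minus strand, 233 bases before) lie between genes of that annotation. So do the Yap1 site at chr9:8004720-8004749 (minus strand, 141 bases before) and the Wwtr1 site at chr3:57576029-57576058 (minus strand, 136 bases before). The Amotl2 site is at chr9:102717727-102717756 (plus strand, 65 bases before the start), in an Amotl2 exon.

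Other genes of the pathway were taken from 4 lists of 77 genes together, of which 70 were tested, 11 were higher and 9 were lower in limma. The lists were chosen with earlier results of these data known. Over all 11290 genes tested, 5.47% were higher and 7.26% lower, and 577 were called with eBayes without a trend and 2066 with voom. Among the 70 the median log2 fold change was 0.00. The count was 9 with eBayes without a trend and 31 with voom, and the 20 calls in limma were all lost without either scramble replicate.

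Among genes related to the 10, members of the CCN family, to which Ctgf and Cyr61 belong, were called in both directions. Wisp1, which encodes the family member CCN4, had 48.2 and 51.2 FPKM with circEsyt2 siRNA, against 20.4 and 19.9 FPKM with scramble siRNA (log2 fold change 1.26, SE 0.12; limma adjusted p = 0.0047). Wisp2, which encodes CCN5, a family member that lacks the carboxy-terminal module, had 29.96 and 32.2 FPKM with circEsyt2 siRNA, against 66.1 and 64.8 FPKM with scramble siRNA (log2 fold change −1.05, SE 0.11; limma adjusted p = 0.00557). So Ctgf and Wisp1 rose, Wisp2 fell, and Cyr61 was not called. Nov, which encodes CCN3, was low at 2.87 and 3.90 FPKM with circEsyt2 siRNA, against 3.88 and 4.49 FPKM with scramble siRNA, and was not called (limma adjusted p = 0.497). Gas6, the ligand of Axl, fell, at 37.3 and 39.8 FPKM with circEsyt2 siRNA, against 59.3 and 58.4 FPKM with scramble siRNA (log2 fold change −0.60, SE 0.11; limma adjusted p = 0.0243). The call of Gas6 was also lost with eBayes without a trend and without either circEsyt2 siRNA replicate. Of the other TAM receptors, Tyro3 averaged 2.43 FPKM with circEsyt2 siRNA and 2.26 FPKM with scramble siRNA, and Mertk was under the filter. In this list of paralogues and partners 1 of 8 tested genes rose and 2 fell, beside 5.47% and 7.26% of all tested genes. The median of the list was −0.09.

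Of the TEAD and cofactor genes 2 of 8 tested rose and 0 fell, beside 5.47% and 7.26% of all tested genes. The median of this list was 0.26. Tead4, another TEAD factor, had 6.13 and 6.84 FPKM with circEsyt2 siRNA, against 1.77 and 2.70 FPKM with scramble siRNA (log2 fold change 1.22, SE 0.23; limma adjusted p = 0.0256). In the scramble libraries Tead4 rested on 16 and 40 fragments. It stayed far below Tead1 in every library. Vgll3, a cofactor that competes with YAP for TEAD, had 111 and 128 FPKM with circEsyt2 siRNA, against 86.1 and 76.3 FPKM with scramble siRNA (log2 fold change 0.55, SE 0.12; limma adjusted p = 0.0426). Vgll3 was thus higher in FPKM than Tead1 in every library. The calls of both Tead4 and Vgll3 were lost with eBayes without a trend, with no filter on low values and without circEsyt2 siRNA replicate 2, that of Tead4 also without replicate 1 and that of Vgll3 also with quantile normalization.

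Of the Hippo kinases and upstream regulators 4 of 30 tested rose and 2 fell, beside 5.47% and 7.26% of all tested genes. The median of this list was 0.03. Stk4, the kinase MST1 that acts above LATS, had 20.8 and 25.4 FPKM with circEsyt2 siRNA, against 14.1 and 12.4 FPKM with scramble siRNA (log2 fold change 0.75; limma adjusted p = 0.0354). Its paralogue Stk3 was not called (limma adjusted p = 0.884). Rassf1, a scaffold for these kinases, and Ppp2r1a, the scaffold subunit of the phosphatase PP2A, rose by 0.79 and 0.70 on the log2 scale (limma adjusted p = 0.0354 and 0.0360). Ajuba, a LIM protein that restrains LATS, had 31.5 and 47.7 FPKM with circEsyt2 siRNA, against 6.98 and 8.66 FPKM with scramble siRNA (log2 fold change 2.18, SE 0.23; limma adjusted p = 0.00519). Fat1, an atypical cadherin, had 18.7 and 22.5 FPKM with circEsyt2 siRNA, against 45.6 and 34.5 FPKM with scramble siRNA (log2 fold change −0.92; limma adjusted p = 0.0280). Ptpn14, a phosphatase that binds YAP, fell by 0.73 on the log2 scale (limma adjusted p = 0.0457). With eBayes without a trend Ajuba kept its call and Stk4, Rassf1, Ppp2r1a, Fat1 and Ptpn14 did not. Without circEsyt2 siRNA replicate 2 these 5 calls were lost as well, and without replicate 1 those other than Stk4. Genes that promote and genes that restrain LATS activity were thus among those that rose.

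Other YAP-TEAD target genes moved in both directions, with 5 of 26 tested higher and 6 lower, beside 5.47% and 7.26% of all tested genes. The median of the list was −0.17. Of this list Ptpn14 and Ajuba also stand among the regulators. Areg, the growth factor amphiregulin, had 20.3 and 27.6 FPKM with circEsyt2 siRNA, against 3.92 and 2.80 FPKM with scramble siRNA, where it rests on 12 and 14 fragments. Gadd45a, a growth arrest gene induced by stress, averaged 28.1 ± 7.40 FPKM with circEsyt2 siRNA and 7.58 ± 1.16 FPKM with scramble siRNA (SD, n = 2). These and the transcription factor gene Myc (log2 fold change 0.97) rose. Ccnd1, which encodes cyclin D1, had 23.6 and 23.2 FPKM with circEsyt2 siRNA, against 84.6 and 76.4 FPKM with scramble siRNA (log2 fold change −1.74, SE 0.12; limma adjusted p = 0.00281). Ereg, the growth factor epiregulin, had 52.2 and 48.2 FPKM with circEsyt2 siRNA, against 130 and 121 FPKM with scramble siRNA. F3, which encodes coagulation factor III, fell as well (log2 fold change −0.47; limma adjusted p = 0.0345). The calls of F3 and Myc were lost with eBayes without a trend and without circEsyt2 siRNA replicate 2, that of F3 also with no filter and without replicate 1. Gadd45a lost its call without circEsyt2 siRNA replicate 2. The target genes thus ran from Ccnd1, at 0.29-fold by mean FPKM, to Areg, at 7.13-fold. Exons of Rassf1, Fat1, Ptpn14, Gadd45a and Ereg overlap gene models on the opposite strand, and fragments from the shared bases cannot be told apart. Ccnd1 and Gas6 overlap LTO1 and Tmem255b, which were assigned 35 to 76 and 1 to 2 fragments per library. Ccnd1 was assigned 341 to 1482 and Gas6 317 to 613. How fragments in the shared bases were assigned is not stated, so these numbers cannot show how many came from the partner gene.

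**Figure D4:**
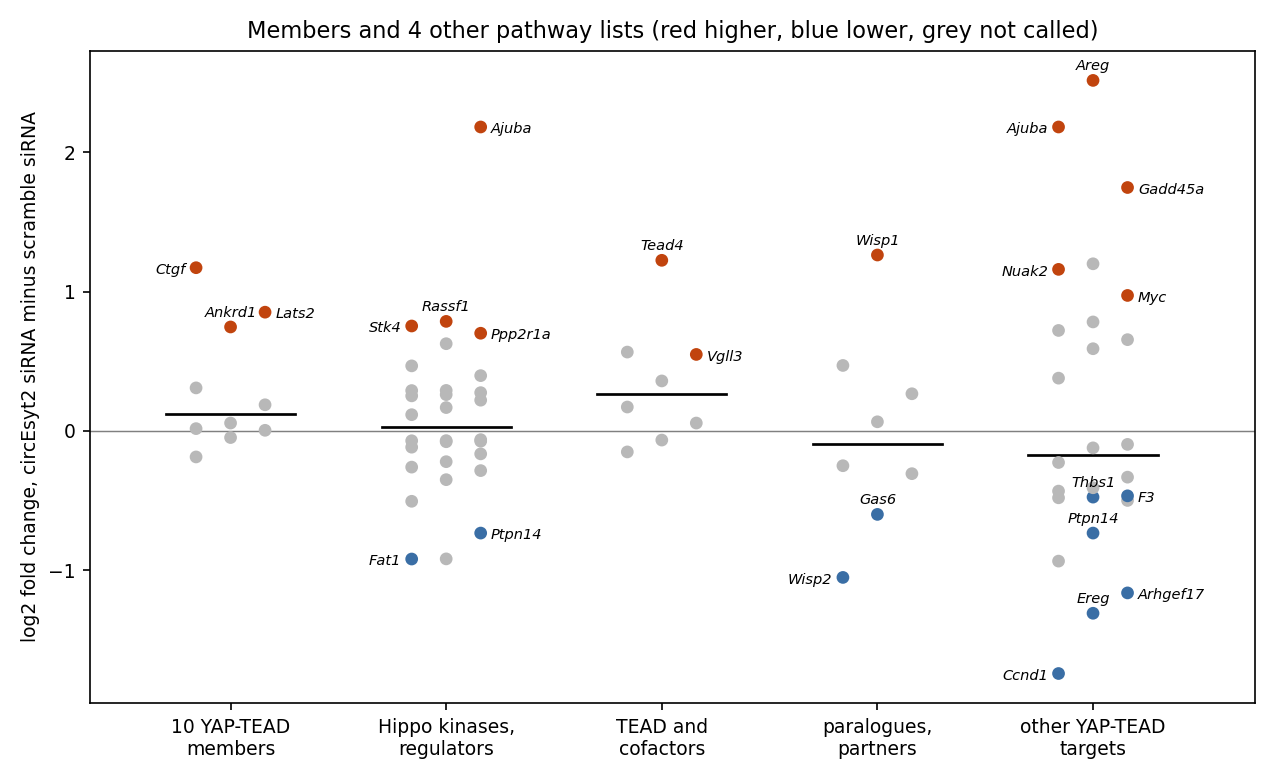
Log2 fold change (circEsyt2 siRNA minus scramble siRNA, log2(FPKM + 1)) of each tested gene among the 10 pathway genes and in 4 other lists, with a bar at the median and a grey line at 0. Called genes are named, in red where higher (3 of the 10 and 11 of the other 70) and in blue where lower (0 and 9), and Ajuba and Ptpn14 appear in 2 lists.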

How the data were processed

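Total RNA was sequenced as paired reads of 150 bp, and the authors deposited 1 table of FPKM per library, with no pooling of replicates. Per the submitters' processing notes, the tools were Trimmomatic, HISAT2 and featureCounts and the build GRCm38 (mm10). The sources used here state no versions, settings or strand use. Fragment numbers were solved from the digits of the FPKM with GENCODE M21 exon-union lengths, which gave whole numbers within 0.0001 for 96.5% of the 20745 genes above 0. Elsewhere, as for Ankrd1, the smallest fitting length gives a minimum. Fragment numbers cover counting error only. Ctgf and Cyr61 were matched to M21 through RefSeq synonyms.

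Genes averaging at least 1 FPKM over the libraries were tested two-sided on log2(FPKM + 1) by limma (version 3.58.1, R 4.3.3), with a mean trend in eBayes and 2 residual degrees of freedom. The steps were tested on simulated data. Fold changes on this scale understate the change of low genes. Named genes were the 10, Esyt2 and, from each other list, up to 4 called genes per direction with the smallest p. Of these, 1 target gene is not reported here. The genes and lists were chosen with earlier results of these data known. Alternatives changed the pseudocount, filter, scaling, eBayes trend, block and test, and left out each library in turn.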

Additional observations from a re-analysis of the deposited data

How the results depend on the processing

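Leaving out 1 library gave 0 to 1027 called genes against 1437, 0 to 3 of the 10 pathway genes against 3, and 0 to 12 of the 70 other pathway genes against 20. With no scramble replicate 1 or 2, limma called 0, while 1959 and 2231 genes passed an unadjusted 0.05. An alternative chosen after seeing the data kept the filter over all 4 libraries, and without circEsyt2 siRNA replicate 1 or 2 it then called 0 and 481 genes, 0 and 2 of the 10, and 0 and 6 of the 70. Where it called 0, 2990 genes, 3 of the 10 and 31 of the 70 had an unadjusted p under 0.05. With eBayes without a trend the calls were 577, 1 of the 10 and 9 of the 70. The replicate block gave 1008 genes, 3 of the 10 and 13 of the 70, and voom gave 2066, 3 of the 10 and 31 of the 70; the cause was not tested. Deviations of same-numbered libraries from their group means correlated at −0.05, and nothing says that equal numbers share a culture. Under the block Stk4, Rassf1, Ppp2r1a, Ptpn14, Vgll3, Gas6 and F3 were among the genes no longer called.

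Directions of Ctgf, Lats2, Ankrd1, Lats1, Wwtr1 and Yap1 held in all 12 alternatives. In these 6 genes the groups did not overlap, so leaving out 1 library could not turn a direction. Changes of filter, eBayes trend or block leave the log2 fold change as it is. Amotl2 turned to −0.007 with voom. Over the fits that left out 1 library the log2 fold changes ran from −0.028 to 0.14 for Cyr61, −0.12 to 0.13 for Amotl2, −0.12 to 0.15 for Tead1 and −0.15 to 0.051 for Axl.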
